A study of Mus musculus with 7 samples.

Results

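The regions described here are sites in the embryonic mouse limb at which Shox2 and Pbx peaks overlapped and which held no Shox2 position in the palate. They were read from peak lists made by chromatin immunoprecipitation followed by sequencing (ChIP-seq). A region was taken from the deposited list of Shox2 and Pbx co-occupied regions, which are limb Shox2 peaks overlapping a limb Pbx peak by 1 bp or more, and was kept when no position of the palate Shox2 list lay inside it. Of the 8999 co-occupied regions, 8218 met this rule (91.3%, 95% exact binomial interval 90.7 to 91.9%, counting error only and with peaks treated as independent). They made up 24.2% of the 33915 limb Shox2 peaks. The count was 5201 with Shox2 and Pbx peaks both set to 200 bp around their centres, and 3699 within the first 50% of each limb list. The regions were chosen by the positions of peaks in all 3 lists, so the values that follow from these positions are a description and were not tested.

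The series holds 7 libraries, 1 per group, from freshly dissected tissue of mouse embryos. The 3 used here are all from E12.5 (the age in days of embryonic development). Shox2 was precipitated from limb and from palate of animals carrying a Shox2-HA protein, with an antibody against the HA tag. Pbx was precipitated from limb with an antibody against Pbx. Its label names no single Pbx protein and no genotype. The labels do not say whether forelimbs, hindlimbs or both were taken, nor how many embryos were pooled. Tissue identity could not be checked against marker genes, since a peak list holds no expression values. The Shox2 libraries of limb at E13.5 and of mixed limb and palate, the anti-HA ChIP from Shox2+/+ embryos without the tag, and the input were not analysed here. With 1 library per group, no value below has a replicate error, and a difference between tissues cannot be told apart from a difference between libraries.

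Shox2 is a homeodomain transcription factor required for the proximal limb skeleton and for the anterior palate. Pbx proteins are homeodomain factors of the TALE class, named for a loop extended by amino acids within the homeodomain. They bind DNA together with other homeodomain proteins, among them Hox and Meis factors, and take part in patterning the limb along its proximodistal axis. A transcription factor present in more than 1 tissue can occupy different sites in each, and partner factors are among the things known to steer such choices.

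Most limb sites on Pbx had no counterpart in the palate list, and so did most limb sites off Pbx. The background was as follows. Of all limb Shox2 peaks 26.5% lay on a Pbx peak, and 6.28% held a palate position. The limb Pbx list held 33915 peaks, the same number as the limb Shox2 list, and why the numbers are equal is not known. The share on Pbx depends on the length of that Pbx list. Among the limb Shox2 peaks without Pbx, 94.6% held no palate position, against 91.3% of the co-occupied ones. Absence from the palate list was thus usual in both classes and was not more frequent on Pbx. The palate list held 15091 positions of 1 bp, whereas the limb lists held intervals. The 26.5% and the 6.28% are therefore unlike measures of overlap. A region missing from the palate list was not shown to be unbound in the palate. The depth and the cutoff of that library are unknown, and a palate position just outside a limb peak also counts as missing.

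The sites were concentrated at the top of the limb Shox2 list. The lists carry no height or score, and the order of lines in the file was used as a possible ranking that the files do not state. In the first decile of the limb list, 1636 of 3392 peaks (48.2%) were such sites. In the fifth decile the share was 21.6%, in the ninth it was 14.9%, and in the last it was 17.3%. The decline was therefore steep over the first deciles and shallow afterwards. Of all 8218 sites, 63.9% lay in the first 50% of the list, against 78.9% of the 781 co-occupied regions that held a palate position and 43.4% of the 23568 limb peaks with neither Pbx nor a palate position. The share of co-occupied peaks without a palate position moved the other way along the list. It was 86.3% in the first decile and 95.7% in the last. Limb peaks without Pbx gave 86.4% and 96.4% in the same deciles, so that at the top of the list both classes missed the palate list about equally often.

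**Figure D1:**
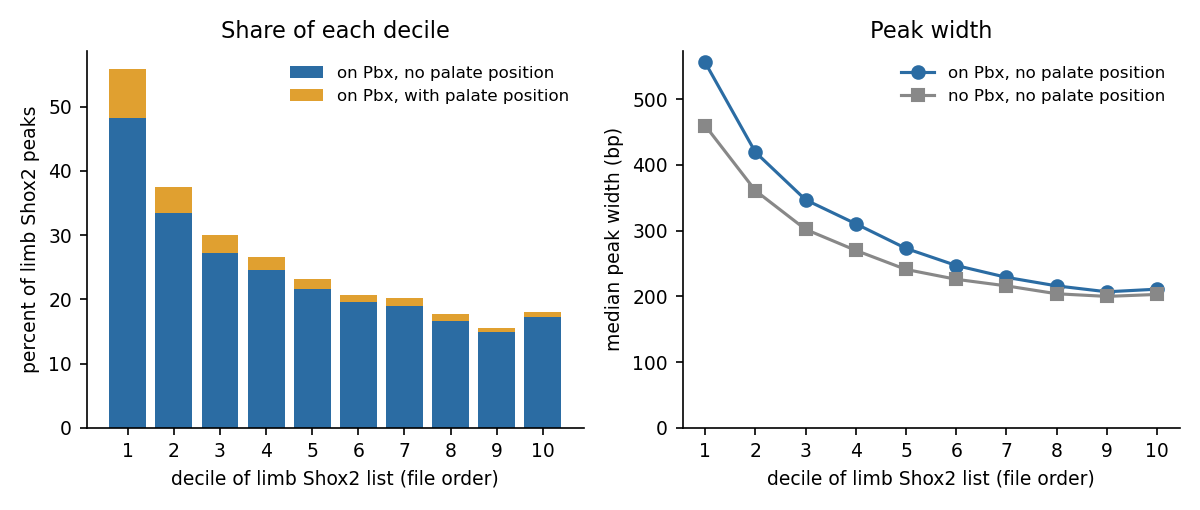
The left panel gives, for each decile of the limb Shox2 list in file order, the percentage of peaks that lay on a Pbx peak, split by whether they held a palate position. The right panel gives the median peak width (bp) of limb peaks without a palate position, on Pbx and off Pbx. Sites on Pbx without a palate position made up 48.2% of the top decile and 17.3% of the bottom decile, and were wider than peaks off Pbx in every decile.

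The sites were wider in the median than the limb Shox2 list as a whole, at 321 bp against 261 bp. Their width ranged from 170 to 2358 bp, with a median of 321 bp and quartiles of 224 and 476 bp, and together they covered 3.16 Mb. The limb peaks with neither Pbx nor a palate position had a median width of 242 bp, and the co-occupied regions with a palate position had one of 383 bp. Width enters both parts of the rule, since a wider peak is more likely to touch a Pbx peak and more likely to contain a palate position. Among co-occupied peaks, 93.8% of the narrowest 25% (170 to 226 bp) and 87.7% of the widest 25% (487 to 2358 bp) held no palate position. The order of the medians was seen chromosome by chromosome. The sites were wider than peaks with neither on 20 of 20 chromosomes, and narrower than co-occupied regions with a palate position on 18 of 20. Part of this went with the place in the list. In the first decile the sites had a median of 556 bp against 460 bp for peaks with neither, and in the last decile 211 bp against 203 bp.

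On the Pbx side, the sites lay mostly inside peaks that were several times wider. The Pbx peak under a site had a median width of 1100 bp (quartiles 848 and 1499 bp), against 897 bp in the whole Pbx list and 853 bp for Pbx peaks that met no limb Shox2 peak. The median ratio of Pbx width to Shox2 width was 3.34. Of the sites, 7160 (87.1%) lay wholly inside the Pbx peak, and 8001 (97.4%) had at least 50% of their length in it. In 30 sites less than 10% of the Shox2 peak was shared, so few sites rested on touching ends alone. The Shox2 and Pbx centres were 142.5 bp apart in the median (quartiles 63.5 and 291 bp), and 20.1% of sites had them less than 50 bp apart. At 109 sites (1.33%) they were 1000 bp or more apart, at most 4658.5 bp. With peaks set to 200 bp the median distance was 80.0 bp, since centres must then lie close to overlap.

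**Figure D2:**
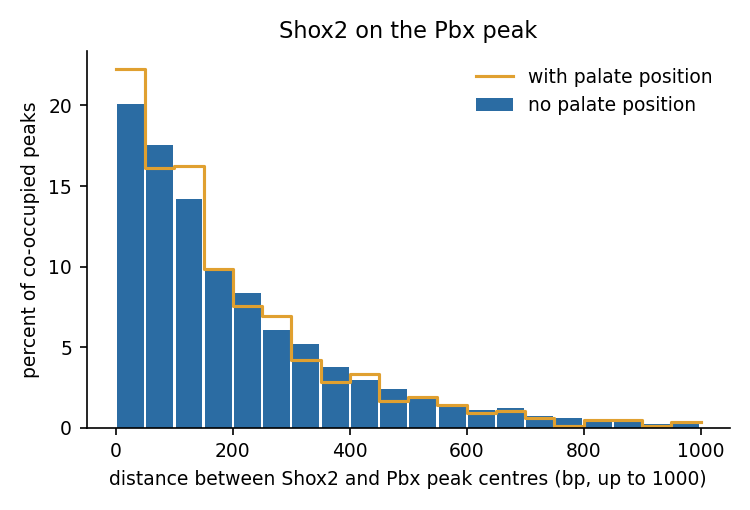
Distance between the centres of a co-occupied Shox2 peak and its Pbx peak, in bins of 50 bp up to 1000 bp, as a percentage of co-occupied peaks without (bars) and with (line) a palate position. Both distributions are highest below 50 bp, with 20.1% of sites without and 22.3% of regions with a palate position there.

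The co-occupied regions that held a palate position were arranged as follows. Their Shox2 and Pbx centres were 134.5 bp apart in the median, 90.9% of the regions lay wholly inside the Pbx peak, and the Pbx peaks had a median width of 1258 bp. At 6404 sites (77.9%) without a palate position, and at 86.0% of regions with one, the middle of the Shox2 peak was within the inner 50% of the Pbx peak. A peak lying wholly inside another has its middle kept off the ends, so these shares depend on the widths. By chromosome, the distance between centres was larger for sites without a palate position on 13 of 20 chromosomes and smaller on 7, so the small gap between the medians was not of 1 direction. The share lying wholly inside the Pbx peak was lower for sites without a palate position on 14 chromosomes and higher on 6. These measures come from the contrast that defined the sites and are given without a test.

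Sites at the head of the Shox2 list more often lay on Pbx peaks from the head of the Pbx list, while the order within the lists was only loosely shared. Of the sites, 19.7% sat on a Pbx peak from the top decile of the Pbx list and 5.22% on one from the bottom decile. For co-occupied regions with a palate position the shares were 23.7% and 4.48%, so this was not particular to the sites. Of the 1636 sites in the first Shox2 decile, 490 (29.95%) had a Pbx peak from the first Pbx decile. Of the 585 sites in the last Shox2 decile, 80 (13.7%) did. Across the 8218 sites, Spearman's rho was 0.15 between the 2 line numbers and 0.09 between the 2 widths, as a description across sites that share libraries. Broad Pbx peaks, of 2000 bp or more, made up 5.26% of the Pbx list. They carried 870 of the sites (10.6%) and 124 of the co-occupied regions with a palate position (15.9%). A wide peak has more room for an overlap.

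Many sites shared a Pbx peak with another. The 8218 sites lay on 7282 Pbx peaks, 21.5% of the Pbx list, and 6 sites touched 2 Pbx peaks. Of these Pbx peaks, 6438 carried 1 site, 752 carried 2, 86 carried 3 and 6 carried 4. The 844 Pbx peaks with 2 or more sites had a median width of 1452 bp, against 1021 bp for those with 1, and 1786 sites lay on them. Such sites have a common Pbx call and are not independent of each other. Among the 7282 Pbx peaks, 129 carried both a site without a palate position and a co-occupied Shox2 peak with one, and 153 sites lay on these.

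A palate position inside the same Pbx peak, but outside the Shox2 peak, was found for 421 sites (5.12%). For these sites the nearest palate position, inside that Pbx peak or not, lay 269 bp from the end of the Shox2 peak in the median (quartiles 99 and 537 bp). By the rule these count as absent from the palate, although limb and palate Shox2 were called within 1 limb Pbx peak. The 5 sites with the closest palate position lay 1, 2, 4, 4 and 5 bp from it. On chromosome 16 the site at chr16:74413216-74413396 of mm9 was 181 bp wide and had a palate position 1 bp beyond its end. On chromosome 7 the site at chr7:90962682-90962894 had one at 2 bp, and on chromosome 19 the site at chr19:57177672-57178140 had one at 5 bp, the first in the list of those at that distance. The other two lay at chr1:158894893-158895213 and chr18:38704159-38704365, each 4 bp away. All 5 lay wholly inside their Pbx peak. On the excluded side of the rule, 17 of the 781 co-occupied regions with a palate position held it no deeper than 10 bp from an end, and 9 sites had one within 10 bp outside. Within 100 bp the numbers were 339 of the 781 regions, inside, and 108 sites, outside. The 781 regions had a median width of 383 bp, so the outer 100 bp at both ends takes in much of a typical region. The inside count thus depends on width, and placement within the region was not tested.

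Beyond the immediate neighbourhood, distances to the palate list were as follows. They depend on how dense that list is, and no level for randomly placed regions was worked out. The median distance from a site's end to the nearest palate position was 40508 bp (quartiles 13415 and 107495 bp). A palate position lay within 1000 bp of 439 sites (5.34%), within 10 kb of 1643 (19.99%) and within 100 kb of 6024 (73.3%). Of the limb peaks with neither Pbx nor a palate position, 63.8% had one within 100 kb, so such a distance was common to most limb peaks. At 121 sites (1.47%) none lay within 1000 kb. These limb peaks with neither were farther away, with a median of 58494 bp and 16.8% within 10 kb, and the median distance measured from the peak's centre was shorter for the sites on Pbx on 20 of 20 chromosomes. The share with a palate position within 10 kb of the centre was 19.8% against 16.6% (exact binomial interval 19.0 to 20.7% for the sites, treated as independent). This share was higher for the sites on 16 chromosomes and lower on 4. For the sites it was 12.2% within 5 kb, 32.8% within 20 kb, and 12.54% within 10 kb when only the first 50% of the palate list was used.

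Counted by distance, palate positions were densest right beside the sites. In the first 100 bp outside a site there were 65.7 palate positions per Mb of flank, from 108 positions. In the next band, out to 500 bp, there were 33.8 per Mb, from there to 1000 bp 16.7, and from there to 5 kb 10.9. Between 10 and 50 kb the density was 10.7 per Mb and had levelled off. Limb peaks with neither gave 52.4 per Mb in the first 100 bp and 8.06 per Mb from 10 to 50 kb, a like shape at a lower level. The measure is the one the rule was made from, outside its limit.

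**Figure D3:**
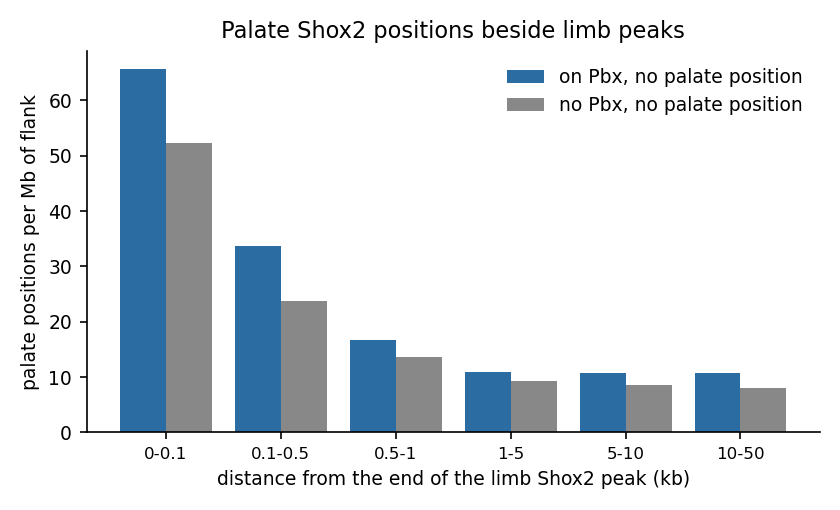
Palate Shox2 positions per Mb of flank by distance from the end of a limb Shox2 peak, for peaks on Pbx without a palate position and for peaks with neither. Density was 65.7 and 52.4 per Mb in the first 100 bp and 10.7 and 8.06 per Mb from 10 to 50 kb.

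Single sites at the head of the list differed in their surroundings. The first line of the limb Shox2 list was itself such a site, at chr19:28185947-28186597 of mm9. It was 651 bp wide, lay wholly inside a Pbx peak of 1199 bp with the centres 167 bp apart, and had its nearest palate position 23.2 kb away. The second line, chr5:47827558-47828279, had its centre 14 bp from that of its Pbx peak and a palate position at 32.5 kb. The third line, chr8:53206048-53207204, was 1157 bp wide and reached beyond a Pbx peak of 909 bp. No palate position lay within 1559 kb of it. The fifth line, chr1:142635527-142636297, had a palate position at 8.45 kb. The seventh line, chr8:27315940-27316718, lay in a Pbx peak of 2876 bp that stood at line 168 of the Pbx list. The Pbx peaks under the other 4 stood at lines 3605 to 19611 of the 33915 in the Pbx list.

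The widest site was chr11:85829061-85831418, with 2358 bp, which was also the widest peak of the whole limb Shox2 list. It lay inside a Pbx peak of 3316 bp with the centres 36 bp apart, and had another site 9.51 kb away. The next 4 by width measured 1912 bp on chromosome 5 (chr5:47122402-47124313), 1818 bp on chromosome 2 (chr2:64009439-64011256), 1730 bp on chromosome 5 (chr5:13622140-13623869) and 1709 bp on chromosome 16 (chr16:55442465-55444173). The first of these was 736 kb from any palate position. The third had a palate position 1.03 kb from its end, so a wide limb site without a palate position inside it could still adjoin one.

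Sites occurred singly more often than in groups. The nearest other site was 31810 bp away in the median (quartiles 3132 and 115879 bp). Another site lay within 10 kb of 2784 sites (33.9%, exact binomial interval 32.9 to 34.9%). The interval treats sites as independent, which they are not here, since a neighbour within 10 kb counts for both sites. When the neighbour had to lie on another Pbx peak, a count chosen after the data were seen, 1332 sites (16.2%) had one, so the rest had neighbours on their own Pbx peak only. The share with another site within 10 kb on any Pbx peak, 33.9% above, was 10.8% with peaks set to 200 bp. It was 20.1% within the first 50% of each limb list. Any limb Shox2 peak lay within 10 kb of 55.4% of the sites, of 54.8% of the co-occupied regions with a palate position and of 45.5% of peaks with neither. A co-occupied region with a palate position lay within 10 kb of 312 sites (3.797%). There were 781 such regions against 8218 sites, so this share is not on the same base as that for another site. When sites with gaps of at most 10 kb between centres were joined, 5434 sites stood alone, 965 runs were pairs of sites, 186 runs had 3 sites, and 68 runs had 4 or more, with 296 sites in all (3.60%).

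The longest run held 9 sites on chromosome 2, from 77727537 to 77756340 of mm9, a span of 28.8 kb. The run contained 13 limb Shox2 peaks and 11 Pbx peaks, 6 of which carried the sites, and no palate position lay closer than 16.1 kb. Its 9 sites were narrow, with a median width of 212 bp, and all stood low in the list, at lines 18402 to 33483. The second, with 7 sites, spanned 22.4 kb on chromosome 11 from 67850013 to 67872399, with a palate position no closer than 30.7 kb.

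The third run also held 7 sites, on chromosome 7 from 106087811 to 106106651. All 7 limb Shox2 peaks in it were sites, on 5 Pbx peaks, and 2 of them were in the first decile of the list. The fourth held 6 sites on chromosome 11 from 110503667 to 110529930, and a palate position lay 2.17 kb outside it. The fifth, the one with the longest span among 11 runs of 5 sites, held its sites on chromosome 19 from 56161123 to 56183583, 3 of them in the first decile, with 1 palate position between sites. Among the 5 runs described, the one with most sites had none in the first decile, as had the second, and the other 3 had 1 to 3.

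**Figure D4:**
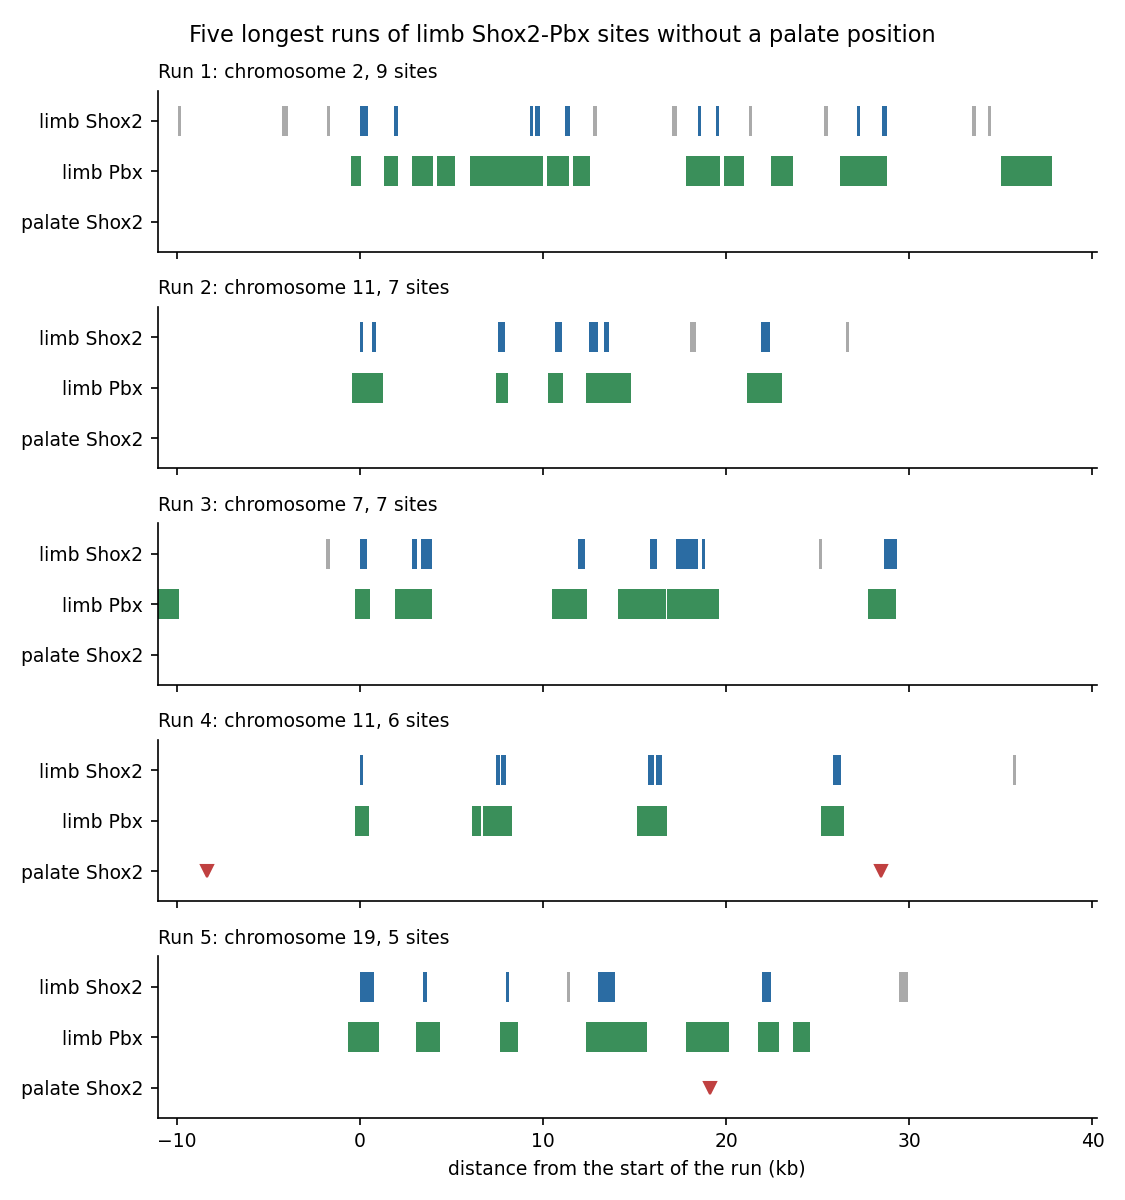
Limb Shox2 peaks (blue, on Pbx without a palate position; grey, neither), limb Pbx peaks (green) and palate Shox2 positions (red triangles) in the 5 runs with most sites (the fifth has the longest span of 11 runs of 5 sites), by distance from the start of the run in kb, drawn to scale with 10 kb on either side. The runs hold 9, 7, 7, 6 and 5 sites, and the fifth has 1 palate position inside it.

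Over the chromosomes the sites were spread much like the limb Shox2 list. Their density on autosomes was lowest on chromosome 7, with 2.05 sites per Mb, and highest on chromosome 18, with 4.39. On X it was 0.765, and 0.361 within the first 50% of each limb list. As a share of limb Shox2 peaks they ranged from 22.2% on chromosome 16 to 29.8% on chromosome 11 on the autosomes, against the background of 24.2%, and made up 17.4% on X. Among co-occupied peaks on X, 123 of 126 (97.6%) held no palate position, against 88.8% (chromosome 17) to 93.1% (chromosome 6) on the autosomes. X held few peaks in every list, so this share rests on 3 regions with a palate position.

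In windows of 1 Mb the sites were uneven. Of 2516 windows with any peak, 1916 held at least 1 site, the median was 2, and 190 windows with 10 or more held 32.1% of all sites. The densest was chromosome 14 from 23 to 24 Mb, with 34 sites among 73 limb Shox2 peaks, 46 Pbx peaks and 14 palate positions. Chromosome 3 from 66 to 67 Mb followed with 33 sites among 93 limb Shox2 peaks. Chromosome 9 from 87 to 88 Mb had 32 among 70, and chromosome 1 from 165 to 166 Mb had 31 among 79. These windows were not free of palate binding. The palate positions in the last 3 numbered 19, 12 and 22.

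There were 28 sites on chromosome 13 from 32 to 33 Mb, with 4 palate positions, and 28 more at 50 to 51 Mb of chromosome 15, with 7. Chromosome 12 from 74 to 75 Mb had 26 sites. The window at 64 to 65 Mb of chromosome 11 had 25, as did that at 55 to 56 Mb of chromosome 18. Chromosome 6 from 53 to 54 Mb had 24, and there, as on chromosome 11, all co-occupied peaks were without a palate position. On chromosome 18 that share was 78.1% (25 of 32), below the 91.3% of all co-occupied peaks. Over the 10 windows, 53 of 657 limb Shox2 peaks (8.07%) held a palate position, against the background of 6.28%. The windows differed in this share. It was below the background in the densest window, on chromosome 14 (4.11%), and in those on chromosomes 13 (3.28%) and 15 (3.77%). In the other windows it was above the background, from 7.55% on chromosome 6 to 13.3% on chromosome 18.

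For 5 of these 10 windows a gene that lies there can be named, as background from general knowledge of the mouse genome and not read from an mm9 annotation. These genes were picked after the windows were known, the other 5 windows, the densest among them, were given no name, and no enrichment of any kind of gene was tested. Shox2 itself lies in the window of chromosome 3. Tbx18, a T-box factor of mesenchymal progenitors, lies in that of chromosome 9. Prrx1, a homeodomain factor of limb and craniofacial mesenchyme, lies in that of chromosome 1. Trps1, a zinc-finger factor of cartilage and joint development, lies in that of chromosome 15. Zfp608, a zinc-finger protein, lies in that of chromosome 18. No site was assigned to a gene, and which genes these sites act on was not measured.

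By the other rule for naming windows, the 22 windows with at least 20 sites were ordered by the share of their limb Shox2 peaks with a palate position. The lowest was chromosome 5 from 74 to 75 Mb, where 1 of 43 limb Shox2 peaks held a palate position and 23 were sites. The next was at 45 to 46 Mb of chromosome 11, with 1 of 33. The window at 32 to 33 Mb of chromosome 13 had 2 of 61, that at 10 to 11 Mb of chromosome 12 had 2 of 60, and that at 99 to 100 Mb of chromosome 3 had 2 of 55. All 5 still held palate positions, from 4 on chromosome 13 to 14 on chromosome 11. In these windows, too, limb and palate Shox2 were both called. That few limb peaks held a palate position there follows from how the windows were chosen. Windows with no palate position at all held 392 sites (4.77%), and 8.13% of limb peaks with neither.

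**Figure D5:**
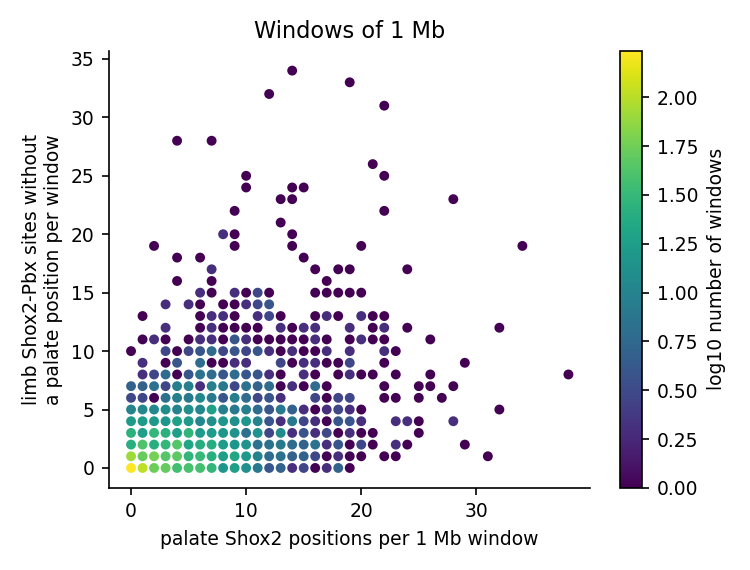
Number of limb Shox2 and Pbx sites without a palate position against the number of palate Shox2 positions in each 1 Mb window, with colour for the number of windows at a point (log10). The densest window has 34 sites and 14 palate positions.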

How the data were processed

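ChIP-seq peak lists of limb Shox2, limb Pbx and palate Shox2 were used as deposited. The build was mm9 and the tools named were Bowtie and MACS2, per the submitters' processing notes. Versions, settings and cutoffs were not given in the sources used here. Deposited files give a chromosome, a start and an end per peak (1 bp positions for palate), without score, so sequencing depth is unknown. An mm9 genome or annotation was not used here, so promoters, genes and motifs planned for description were not run and no coordinates were converted. Positions are printed from 1.

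Lists were compared by 1 bp of overlap, with Python 3.11.15, NumPy 2.4.6 and pandas 2.3.3. Overlap and distance code was tested on simulated peaks. Windows of 1 Mb were named by most sites (10) and, with at least 20 sites, by smallest share of limb peaks with a palate position (5). Runs (5) were named by number of sites, and single sites by list place, width and distance to palate (5 each). Members and rules were chosen with earlier results of these data known. Each group has 1 library, so no test between groups was made. Alternatives were other definitions of overlap, margin, list length, distance and window.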

Additional observations from a re-analysis of the deposited data

How the results depend on the processing

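Of 86 recomputed values, 52 stayed close to those reported (within the 95% interval of the share or median, or within 1.5 times a count) and 34 moved. The count of sites kept within 1.5 times in 7 of 9 alternatives. It was 5201 with Shox2 and Pbx peaks set to 200 bp and 3699 with the first 50% of each limb list, which hold less sequence or fewer peaks by construction. The share of co-occupied peaks without a palate position was 90.1%, 87.8% and 86.4% with margins of 100, 500 and 1000 bp, 86.6% when the overlapping Pbx peaks also had to be free of palate positions, 93.7% with the first 50% of the palate list, 93.5% at 200 bp and 89.3% with the first 50% of each limb list. In the same order the share with a palate position within 10 kb was 18.8%, 16.6%, 15.3%, 15.5%, 12.54% and, at 200 bp, 19.0%. It was 12.2% within 5 kb and 32.8% within 20 kb. The margins and the Pbx condition remove sites close to a palate position, and the shortened palate list leaves fewer positions. In those settings both shares move largely by construction. The distance between centres was 138.0 bp without palate positions in the Pbx peak, 137.5 bp both with 50% of the Shox2 peak in the Pbx peak and with the first 50% of each limb list, and 80.0 bp at 200 bp. The share wholly inside the Pbx peak was 89.5% with that 50% and 89.1% with the first 50% of each limb list. The share with another site within 10 kb was 32.0%, 20.1% and 10.8% in these and the 200 bp setting, 27.9% within 5 kb, 42.4% within 20 kb and 16.2% with the neighbour on another Pbx peak, an alternative chosen after seeing the data. The most sites in a window of 1 Mb was 34, 30 with windows moved by 500 kb and 40 per Mb in windows of 500 kb. Promoter and motif alternatives were not run. No paired analysis was possible because only 1 library stands for a group.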

Other observations

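Stretches between neighbouring palate positions were searched for sites after the data had been seen. The most sites between a pair of neighbouring palate positions was 16, in 2 places. On chromosome 1 from 27.62 to 32.42 Mb of mm9, 4.80 Mb without a palate position held 16 sites among 54 limb Shox2 peaks and 22 Pbx peaks. On the same chromosome from 186.16 to 186.48 Mb, 0.320 Mb held 16 sites among 33 limb Shox2 peaks and 25 Pbx peaks. The stretch on chromosome 5 from 81.99 to 84.73 Mb held 15 sites among 62 limb Shox2 peaks. The second of these stretches is far shorter than the first, with the same number of sites. The site most distant from any other, at chr7:17142553-17143163, was 9470 kb from its nearest neighbour and 402 kb from a palate position.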
